A study of Mus musculus with 24 samples.

Results

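The genes described here code for smooth muscle and contractile proteins: Acta2, Actg2, Cnn1, Cnn2, Tagln, Myl9, Cald1, Tpm1, Tpm2 and Fhl1. They were chosen by symbol in the annotation of the array's probe sets. A probe set is a group of short probes that together report 1 transcript. Of the 10 listed genes, 9 had a probe set under that symbol, among 8251 genes named on the array, and Cald1, which had none, was not analysed here. The 9 genes had 12 probe sets, of which 10 were bright enough to be tested, at least 1 for each gene.

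The tumour samples were 11 cell lines derived from tumours in the lungs of 8-month-old mice with both a c-Myc and a c-Raf transgene, kept in medium with 10% calf serum and passaged weekly for up to 50 passages. The control was alveolar type II cells from healthy mice without the transgenes, taken from a Percoll gradient. There were 22 arrays of tumour lines and 2 control arrays: A2C12, B3, cRAF_cMYC, gammaA7 and gammaB8 had 3 arrays each, A2B1 had 2, and betaD5, betaD10, gammaA3, gammaD1 and gammaD12 had 1. The line titled gammaB8 is called gammaA8 in another label of the same samples, and the title's name is used. The labels used here do not name the promoter that drives the transgenes, and do not say whether lines came from separate mice, whether repeat arrays stand for separate cultures, or whether control animals were pooled. All tumour samples were long-passaged cultures and the control was not labelled as cultured, so culture and tumour origin cannot be told apart in any comparison with control.

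Smooth muscle cells contract when myosin, switched on by phosphorylation of its regulatory light chain, pulls on actin filaments that are wrapped in tropomyosin and decorated with calponin and caldesmon. Many genes of this apparatus are driven by serum response factor (SRF) with its partners of the myocardin family, which bind a short DNA element called the CArG box. In the lung these proteins mark airway and vascular smooth muscle and activated fibroblasts, and cultured cells of several other kinds make some of them in actin stress fibres. In bulk samples such as these, more cells of a type and more RNA per cell cannot be told apart.

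The promoters of 5 of the genes are shown because 4 of them (Acta2, Tpm1, Cnn1 and Cnn2) were higher in the tumour lines, while Myl9, which holds an exact CArG box as Cnn2 does, was not called. Each sequence is the RefSeq window of build GRCm38.p6 from 250 bases before to 50 bases after an annotated transcript start, 5′ to 3′ on the gene's strand, with capitals marking CArG boxes with at most 1 mismatched letter. A CArG box is CC, then 6 letters that are each A or T, then GG, a pattern that reads the same on both strands. The windows are chr19:34255324-34255623, minus strand, for Acta2, chr9:67049164-67049463, minus strand, for Tpm1, chr10:79988350-79988649, plus strand, for Cnn2, chr9:22099003-22099302, plus strand, for Cnn1 and chr2:156775214-156775513, plus strand, for Myl9.
Acta2: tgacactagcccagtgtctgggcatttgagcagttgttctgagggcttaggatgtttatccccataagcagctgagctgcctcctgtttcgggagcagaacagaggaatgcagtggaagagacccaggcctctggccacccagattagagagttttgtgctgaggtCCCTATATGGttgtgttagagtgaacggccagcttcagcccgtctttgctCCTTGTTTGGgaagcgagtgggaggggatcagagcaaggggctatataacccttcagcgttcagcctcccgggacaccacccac
Tpm1: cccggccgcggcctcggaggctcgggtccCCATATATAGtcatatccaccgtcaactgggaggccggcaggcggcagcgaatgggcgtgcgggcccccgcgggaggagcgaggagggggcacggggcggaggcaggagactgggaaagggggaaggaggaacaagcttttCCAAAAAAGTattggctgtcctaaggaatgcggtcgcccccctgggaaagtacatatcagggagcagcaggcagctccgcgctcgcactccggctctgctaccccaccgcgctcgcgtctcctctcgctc
Cnn2: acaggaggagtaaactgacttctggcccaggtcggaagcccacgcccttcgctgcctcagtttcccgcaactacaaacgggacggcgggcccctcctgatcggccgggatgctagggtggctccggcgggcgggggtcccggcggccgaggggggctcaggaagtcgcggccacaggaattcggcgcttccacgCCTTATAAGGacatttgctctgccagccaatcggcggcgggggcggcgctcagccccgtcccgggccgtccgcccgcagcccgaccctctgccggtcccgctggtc
Cnn1: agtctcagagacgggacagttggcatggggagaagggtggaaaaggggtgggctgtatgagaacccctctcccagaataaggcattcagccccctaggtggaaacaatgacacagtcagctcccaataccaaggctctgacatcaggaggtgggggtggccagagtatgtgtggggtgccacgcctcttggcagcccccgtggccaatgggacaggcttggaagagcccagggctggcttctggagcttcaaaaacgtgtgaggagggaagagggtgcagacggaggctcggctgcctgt
Myl9: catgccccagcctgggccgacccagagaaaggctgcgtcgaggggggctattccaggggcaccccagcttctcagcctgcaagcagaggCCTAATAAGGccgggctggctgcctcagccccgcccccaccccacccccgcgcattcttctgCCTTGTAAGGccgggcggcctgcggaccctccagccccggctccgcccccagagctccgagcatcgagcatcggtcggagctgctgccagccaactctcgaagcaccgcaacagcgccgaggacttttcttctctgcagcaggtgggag
An exact box was found in 1.63% of all 32851 RefSeq promoter windows, and a box with at most 1 mismatch in 21.1%. Cnn2 held the exact box CCTTATAAGG, starting at position -56 from the transcript start, and Myl9 held CCTAATAAGG at -161. The Acta2 window held CCCTATATGG at -84 and CCTTGTTTGG at -34, each with 1 mismatch, and the Tpm1 window held CCATATATAG at -221 and CCAAAAAAGT at -80, also with 1 mismatch each. No box with at most 1 mismatch was found in the windows of Cnn1 and Tpm2. For Actg2 and Tagln no window was available, so their promoters were not searched. Of the 2 windows listed for Fhl1, 1 held the exact box CCTAAAATGG at -102. A match in letters is a description of these windows and says nothing of binding.

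The arrays did not all stand together, and several results below rest on this. For each tested probe set, signals were set against its mean over the tumour arrays, and arrays were then correlated over 7670 probe sets. Replicate 1 of cRAF_cMYC and replicate 1 of gammaA7 correlated at 0.730, and the replicates numbered 2 of these lines at 0.832, whereas replicates 1 and 2 correlated at -0.032 within cRAF_cMYC and at -0.0127 within gammaA7. For 7 of the 9 genes, the same-numbered arrays of these lines were closer to each other than the repeat arrays of each line were. Tagln gave 55.8 on replicate 1 and 554 on replicate 2 of cRAF_cMYC, and 61.6 and 611 on those of gammaA7. The arrays therefore went against the line labels there, and the counts of genes called or passing are given with and without them. Titles give a replicate number to 11 tumour arrays and none to the other 11, and all 5 lines with 1 array have an unnumbered one.

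The control arrays also differed from each other. Signals were summed over all listed markers on the array, tested or not. The 7 type II markers (4 tested) summed to 42.7 to 110 per tumour line, against 7500 on control 1 and 34150 on control 2. The 10 macrophage markers (9 tested) summed to 172 to 251 per line, against 43750 and 23950 on the controls. The 5 club and ciliated cell markers (4 tested) summed to 319.5 to 465 per line, against 7454 and 20060 on the controls. The 8 lymphocyte markers (5 tested) summed to 75.2 to 142, against 1864 and 5006. The 9 endothelial markers (4 tested) summed to 62.3 to 145, against 1067 and 2869. The control arrays thus held transcripts of several lung cell types, in different amounts, that were low in the lines. Acta2, Tagln and Tpm1, 3 of the 9 genes, were at least 2-fold apart between the controls, as were 12.7% of the 5825 genes tested.

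The comparison of tumour lines with type II cells asked which genes of the contractile apparatus differ between the transformed lines and the cell type used as their control. Of the 9 genes, 4 were higher in the tumour lines: Acta2, Tpm1, Cnn1 and Cnn2. None was called lower, although 1 of the 2 tested probe sets of Fhl1 was, and Actg2, Tagln, Myl9 and Tpm2 did not pass. A gene was called at an adjusted p under 0.05 (limma, Benjamini-Hochberg over all tested probe sets) and at least a 2-fold difference, with the 11 line means of log2(signal + 32) set against the 2 control arrays. The 9 genes gave 44.4% called higher and 0 lower. By the same rule 38% of the 5825 tested genes were called in either direction, 16.7% higher and 21.3% lower. Among the 4848 genes above the array median on at least 12 arrays, these shares were 20% and 14%, and the counts among the 9 genes were the same. Of the 9 genes, 1 with a negative difference, Actg2, had an unadjusted p under 0.05. The median difference of the 9 genes was 0.33 on the log2 scale, against -0.03 over all tested genes. For the same 4 genes all 11 line means lay above both control arrays, which held for 25.8% of tested genes. For none of the 9 did all line means lie below both, as they did for 28.9% of tested genes. Without the 4 numbered arrays of cRAF_cMYC and gammaA7, the same 4 genes were called higher and 0 lower. Without both of these lines the calls were again the same. In each setting 16.8% of tested genes were called higher, with 21.6% and 21.5% called lower.

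Centring every array on its median instead of keeping the deposited scale moved the median of all genes to 0.51, and quantile normalization moved it to 0.18. The share of higher calls among all calls was 44% as deposited, 72.6% after centring and 54.9% after quantile normalization. The 4 higher calls remained under both, beside 32% of tested genes called higher after centring and 21.9% after quantile normalization. None of the 9 genes was called lower under either, beside 12.1% and 18% of tested genes. On each scale the 4 genes stayed more than 1 log2 unit above the median of all genes.

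**Figure D1:**
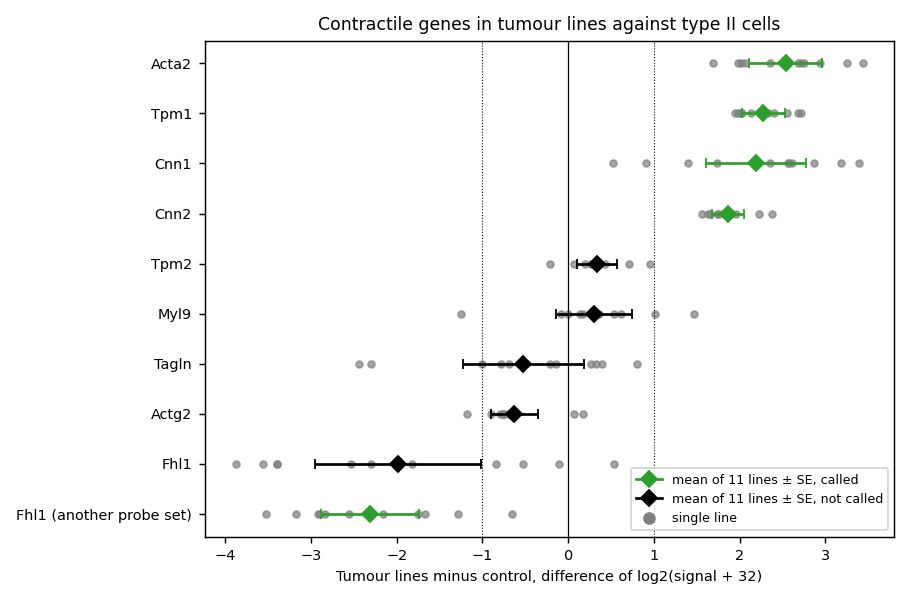
Difference between tumour lines and control for each gene, in log2(signal + 32), with diamonds for the mean over 11 lines, bars for its SE and grey points for single lines; dotted lines mark 2-fold. Acta2, Tpm1, Cnn1 and Cnn2 lie beyond 2-fold on the higher side, and the grey points of Fhl1 run from below -3 to above 0.

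Acta2 codes for smooth muscle alpha-actin, the actin isoform of smooth muscle and of myofibroblasts (probe set 93100_at). Its signal on the tumour arrays was 1276 at the lowest, 3733.5 at the median and 7934 at the highest, against 1002 on control 1 and 310.4 on control 2. Every tumour array lay above both controls, and control 1 lay closer to them than control 2 did. The line means averaged 3853 ± 1294 (SD, n = 11), and the difference of tumour lines minus control was 2.54 on the log2 scale (SE 0.43, adjusted p = 9.34e-05). Taken line by line in limma, 10 of 11 lines were called higher, and cRAF_cMYC was the exception at 1.69 (adjusted p = 0.0584). Of all tested genes, the share called higher was 13.9% in A2B1, 18.5% in A2C12, 17.7% in B3, 17.2% in betaD5, 16.2% in betaD10, 17.3% in cRAF_cMYC, 16.9% in gammaA3 and in gammaA7, 17.4% in gammaB8, 16.4% in gammaD1 and 15.8% in gammaD12. The difference depended on which control was used: it was 3.33 without control 1 and 1.74 without control 2, past the threshold either way. It was 1.70 (adjusted p = 0.0169) with numbered arrays alone and 2.98 with unnumbered arrays alone.

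Actg2 codes for smooth muscle gamma-actin, the enteric isoform, and was measured by a probe set of the kind that shares probes among related genes (93102_f_at), so its signal may include other actins. The tumour arrays gave 100 at the lowest, 220.02 at the median and 1396 at the highest, against 450 and 326 on controls 1 and 2. Most tumour arrays, 20 of 22, lay below both controls, and 1 array, the unnumbered one of gammaA7, lay above both. Its line means averaged 267 ± 133 (SD, n = 11), and the difference of -0.63 (SE 0.28, limma adjusted p = 0.0578) did not pass. Without gammaA7 and cRAF_cMYC it was -0.70 (adjusted p = 0.0232), under 2-fold.

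Tpm1 codes for alpha-tropomyosin, which lies along the actin filament and governs access of myosin (160532_at). Tumour arrays gave 3411 at the lowest, 5401 at the median and 7225 at the highest, against 1560.5 on control 1 and 734 on control 2. All 22 tumour arrays lay above both controls. The line means averaged 5464 ± 1067 (SD, n = 11), the difference was 2.28 (SE 0.25, limma adjusted p = 1.71e-06), and all 11 lines were called higher one by one. The difference was 1.97 with numbered arrays alone and 2.44 with unnumbered arrays alone.

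Tpm2 codes for beta-tropomyosin, a partner of Tpm1 in muscle (100605_at). Its tumour arrays gave 55.7, 129 and 223 at the lowest, median and highest, against 123 and 71.3 on the controls. The groups overlapped, with 6 line means above both controls and 5 between them. The difference of 0.33 (SE 0.23, limma adjusted p = 0.222) did not pass, and no line was called. It was 0.62 without control 1 and 0.04 without control 2. After centring it was 0.87 (adjusted p = 0.00627) and after quantile normalization 0.83 (adjusted p = 0.00874), both under 2-fold and so not called. A second probe set of Tpm2 reached 27.5 at the highest on the tumour arrays and gave 27.3 and 36.9 on the controls, and was too dim to be tested.

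The calponins bind actin and restrain myosin's ATPase, Cnn1 in differentiated smooth muscle and Cnn2 more widely. Cnn1 (99942_s_at, a probe set shared by several transcripts) gave 15.9 at the lowest, 161 at the median and 1440 at the highest on the tumour arrays, against 13.9 and 23.4 on the controls. Of 22 tumour arrays, 19 lay above both controls, and the other 3 were numbered arrays of A2C12 and gammaB8. The line means averaged 282 ± 168 (SD, n = 11). The difference was 2.19 (SE 0.59, limma adjusted p = 0.00409), and it understates the ratio of signals because both control values lay under the offset of 32. One by one, 3 lines were called higher: B3, betaD10 and gammaA7. The difference was 2.88 (adjusted p = 0.00159) with unnumbered arrays alone, and 1.27 (adjusted p = 0.105) and no longer called with numbered arrays alone. With all arrays and the line as a random block it was 2.09 at an adjusted p of 0.0505.

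Cnn2 (94004_at) had the smallest SD of line means of the 9 genes, 0.25 on the log2 scale. Its tumour arrays gave 1251 at the lowest, 1643 at the median and 2633 at the highest, against 427 and 461 on the controls. All 22 tumour arrays lay above both controls. The line means averaged 1737 ± 329 (SD, n = 11), the difference was 1.87 (SE 0.19, limma adjusted p = 7.13e-07), and all 11 lines were called higher one by one. It was 1.78 with numbered arrays alone and 1.90 with unnumbered arrays alone, the smallest gap between the array labels among the 4 genes called higher.

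Tagln codes for transgelin (SM22-alpha), an actin-bundling protein related to the calponins and an early marker of smooth muscle differentiation (93541_at). Its tumour arrays gave 47.0 at the lowest, 337 at the median and 3048 at the highest, against 767 on control 1 and 222 on control 2. Line means lay between the controls in 8 lines, below both in A2C12, betaD5 and gammaD12, and above both on the log2 scale in none. The difference of -0.52 (SE 0.71, limma adjusted p = 0.527) did not pass. Its sign turned with the control used, at 0.30 without control 1 and -1.35 without control 2, and it was 0.01 after centring.

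Myl9 codes for a regulatory light chain of smooth muscle and non-muscle myosin, the chain that is phosphorylated on activation (96939_at). Its tumour arrays gave 12.3 at the lowest, 157 at the median and 399 at the highest, against 146 and 103 on the controls. Of 22 tumour arrays, 12 lay above both controls and 6 below both. The difference of 0.30 (SE 0.44, limma adjusted p = 0.567) did not pass, and it was -0.49 with numbered arrays alone and 0.72 with unnumbered arrays alone. It was 0.50 without control 1 and 0.10 without control 2, and 0.84 after centring and 0.76 after quantile normalization, none of them called.

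Fhl1 codes for a LIM-domain protein abundant in striated muscle that binds to sarcomeric and signalling proteins. Its brightest probe set (97498_at) gave 19.4 at the lowest, 144 at the median and 1875 at the highest on the tumour arrays, against 915 and 1377 on the controls. Of 22 tumour arrays, 19 lay below both controls, and the unnumbered arrays of A2B1 and betaD10 lay above both. The difference of -1.98 (SE 0.96, limma adjusted p = 0.0824) did not pass. One by one, 5 lines were called lower. Of all tested genes, the share called lower was 17.6% in A2B1, 22% in A2C12, 22.1% in B3, 21.7% in betaD5, 19% in betaD10, 20.9% in cRAF_cMYC, 21.5% in gammaA3, 20.5% in gammaA7, 20.7% in gammaB8, 21.4% in gammaD1 and 18.9% in gammaD12. Without line A2B1 it was -2.17 (adjusted p = 0.0499), without betaD10 it was -2.24 (adjusted p = 0.0321) and with numbered arrays alone it was -2.69 (adjusted p = 0.0242), each called lower.

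A second tested probe set of Fhl1 (97500_g_at) gave 20.7 at the lowest, 101 at the median and 472 at the highest on the tumour arrays, against 561 and 1022 on the controls. All 22 tumour arrays lay below both controls on it. The difference was -2.31 (SE 0.57, limma adjusted p = 0.00226) and was called lower. The probe sets thus gave the same direction and fell on either side of the threshold, and their mean gave -2.15 (adjusted p = 0.0224). The remaining probe set of Fhl1 reached 13.5 at the highest on the tumour arrays and gave 2.52 and 0.833 on the controls, too dim to be tested.

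**Figure D2:**
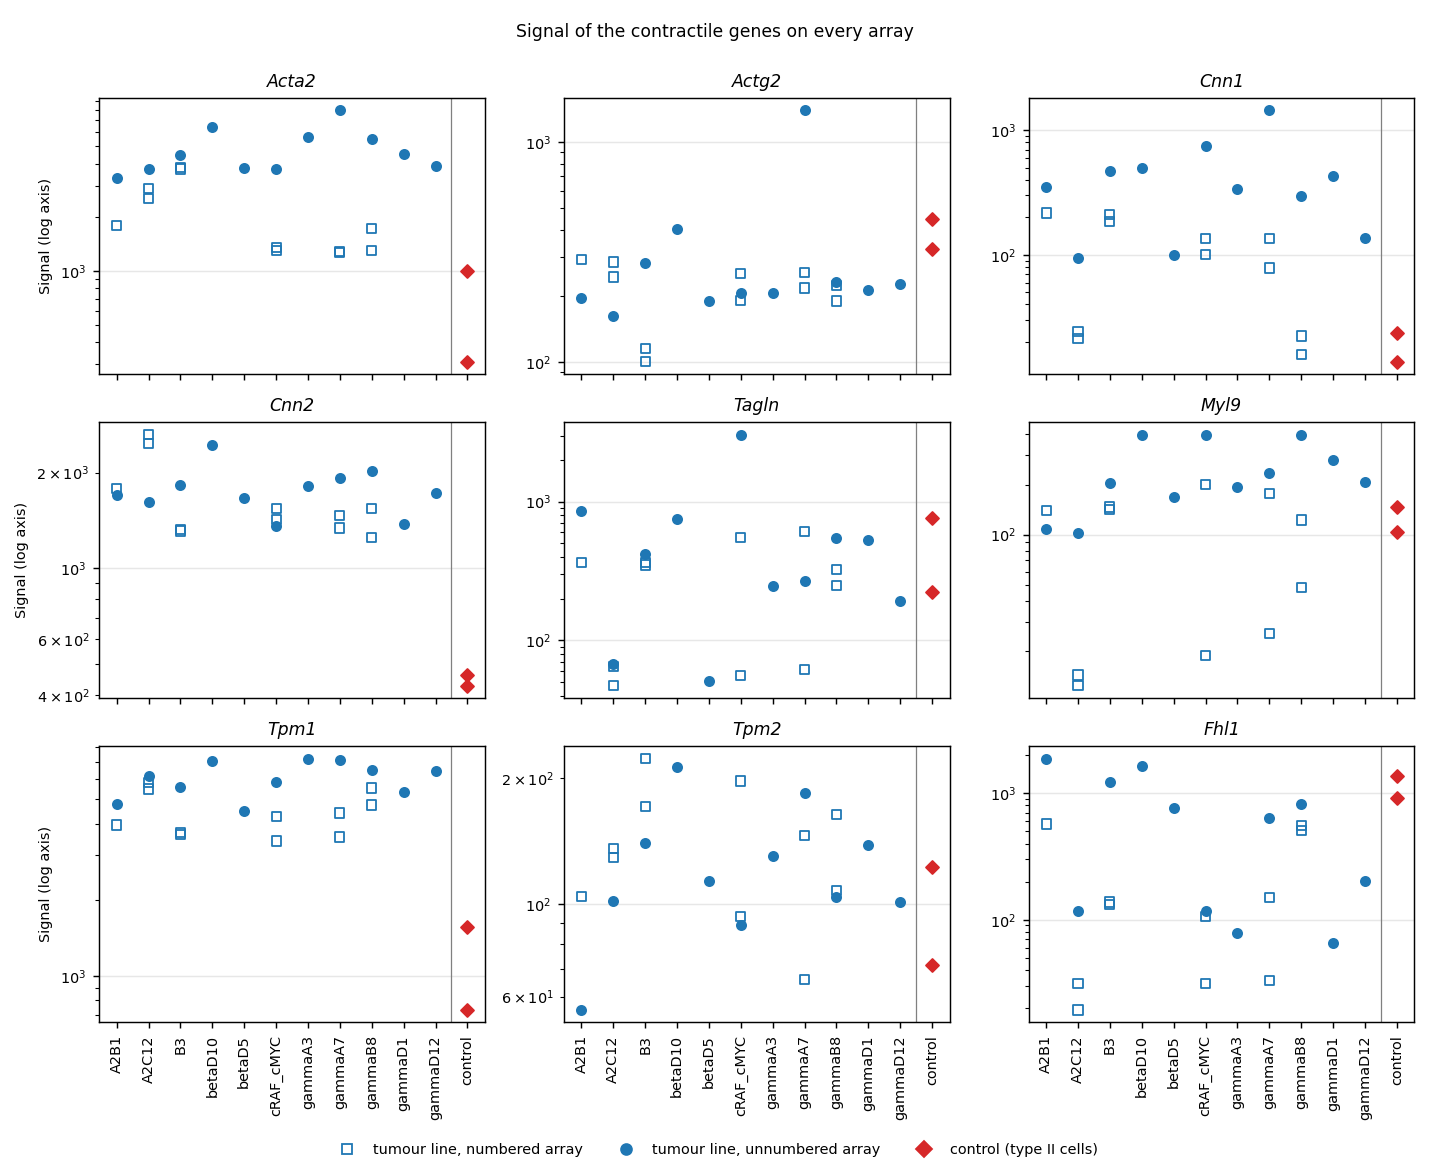
Signal of each gene on every array, on log axes, with open squares for numbered and filled circles for unnumbered tumour arrays and diamonds for the 2 controls. Tumour arrays of Acta2, Cnn2 and Tpm1 all lie above the controls, those of Fhl1 mostly below, and those of Tagln, Myl9 and Tpm2 overlap them.

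Other genes of smooth muscle did not move as one. Of 20 listed, 12 were on the array and 5 were tested, with 1 called higher and 2 lower at a median of 0.03. Smtn, the actin-binding protein smoothelin of contractile smooth muscle, gave 238 ± 91.4 (SD, n = 11 lines), against 23.2 and 17.3 on the controls, a difference of 2.29 (limma adjusted p = 2.25e-06). Mylk, the kinase that phosphorylates the myosin light chain, gave 255 ± 114 in the lines, against 555 and 869 on the controls, and fell by 1.56 (adjusted p = 0.0117). Npnt, the matrix protein nephronectin, fell by 1.66 (adjusted p = 0.00294). Myh11, the smooth muscle myosin heavy chain that defines the mature cell type, was too dim to be tested, at 1.32 to 17.9 per line, against 22.3 and 93.3 on the controls. Desmin (Des), the intermediate filament protein of muscle, was likewise not tested, at 9.16 to 30.6 per line, against 56.6 and 68.9 on the controls. Of the 7 genes too dim to be tested, others reached higher in a line than on the controls: Itga8, an integrin chain, reached 28.7, against 12.7 and 18.6, and Casq2, a calcium store protein, reached 51.9, against 35.8 and 37.6. No direction is read from signals this low.

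Of 26 listed relatives of the actins, tropomyosins, myosins and calponins, 19 were tested, with 4 called higher and 5 lower at a median of 0.13. Vcl, vinculin of focal adhesions, gave 4615 ± 892 (SD, n = 11) in the lines, against 1035 and 765 on the controls, a difference of 2.29 (limma adjusted p = 6.12e-07). Myh14, a non-muscle myosin heavy chain of epithelia, gave at most 102 in a line, against 974 and 2102 on the controls, and fell by 4.15 (adjusted p = 7.36e-09). A probe set for cytoplasmic beta-actin (Actb) that shares probes among related genes fell by 2.74 (adjusted p = 0.000134), and it was 2.36 higher on numbered than on unnumbered arrays (adjusted p = 0.0218). The other 3 called higher, named after their values were seen, were cytoplasmic gamma-actin (Actg1, 1.03), Tpm4 (1.54) and Cnn3 (1.70), relatives of the genes described here. The other 3 called lower were Cap1 (-1.83), Myl12b (-1.63) and Csrp2 (-1.24), of which Myl12b is a regulatory light chain closely related to Myl9.

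Of 33 listed genes of striated muscle 10 were tested, with 2 called higher and 2 lower at a median of -0.16. Eno3, muscle enolase of glycolysis, was higher by 2.98 (limma adjusted p = 2.88e-07). Myod1, a myogenic transcription factor, fell by 1.44 (adjusted p = 1.64e-05), with 19.8 to 60.8 per line, against 138 and 195 on the controls. Tnni1, a troponin of slow muscle, fell by 1.31 (adjusted p = 2.45e-05), with 33.4 to 80.2 per line, against 198 and 177.5. Array medians were 53.2 to 75.5 for tumour lines and 93.8 and 108 for control. Signals of Myod1 and Tnni1 were thus low, and no muscle expression in type II cells is read from them.

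Markers of other cell types moved beside the 4 higher genes, and their part in these results was not tested. The 12 fibroblast markers on the array (11 tested) summed to 7152 to 28650 per line, against 6263 and 3963 on the controls. Of the tested ones, 2 were called higher and 3 lower. Col1a1, a chain of type I collagen, gave 4705 to 13440 per line, against 1147 and 164 on the controls, and Dcn (decorin) gave 236 to 5374, against 1207 and 1406. The 9 pericyte and vascular wall markers on the array (4 tested) summed to 148 to 399 per line, against 611 and 1129 on the controls. Of the tested ones, none was called higher and 3 lower. Mesothelial markers, 5 tested, summed to 503 to 9675 per line, against 4436 and 3525 on the controls, with none called higher and 1 lower. The 11 epithelial markers on the array (10 tested) summed to 395 to 3323 per line, against 14920 and 8034 on the controls. All tested markers of epithelium (10), type II cells (4), macrophages (9), endothelium (4), lymphocytes (5) and club and ciliated cells (4) were called lower. A probe set bright on the 2 control arrays alone entered the test, so such markers could hardly be called other than lower. These counts are therefore a description.

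The test among lines asked whether the lines differ by more than repeat arrays of a line do. None of the 9 genes passed a moderated F-test over the 11 lines (limma, adjusted p under 0.05), which 3.71% of tested genes passed, and 1, Fhl1, had an unadjusted p under 0.05 (adjusted p = 0.0729). The adjusted p of the other 8 ran from 0.411 for Tagln to 0.756 for Acta2. The SD of line means exceeded the moderated SD of single arrays within groups for Fhl1 alone, at 1.54 and 0.98 on the log2 scale. For Acta2 these were 0.56 and 0.80, and for Cnn1 0.93 and 1.08. The SD within groups was thus the larger for the other 8 genes. These SDs are unlike measures, since the means of some lines average several arrays and the SD within groups includes the control pair. The SD within groups also includes the difference between numbered and unnumbered arrays described further on. With the 10 numbered arrays of 5 lines alone, Acta2 (adjusted p = 0.00204), Cnn1 (0.00204), Cnn2 (0.0122), Fhl1 (0.018) and Actg2 (0.0181) passed, 5 of 9 genes, as did 21.8% of tested genes.

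The levels of single lines are therefore given as a description. Mean Acta2 signal ran in the order cRAF_cMYC (2134), A2B1 (2566), gammaB8 (2842), A2C12 (3061), gammaA7 (3500.4), betaD5 (3796), gammaD12 (3870.4), B3 (3995), gammaD1 (4545), gammaA3 (5647) and betaD10 (6427). Of the 6 lines with the highest means, 5 had an unnumbered array alone, and neighbours did not differ beyond the spread of repeat arrays. Mean Fhl1 signal ran from 56.0 in A2C12, 66.0 in gammaD1, 78.0 in gammaA3 and 84.8 in cRAF_cMYC, through 202 in gammaD12, 274 in gammaA7, 496 in B3, 628 in gammaB8 and 767 in betaD5, to 1222 in A2B1 and 1642 in betaD10. The line betaD10 had the highest mean signal for Acta2, Cnn2, Myl9, Tpm2 and Fhl1, on 1 array. On the log2 scale its mean was also the highest for Cnn1 and Tagln. That array was unnumbered, whereas the means of 6 other lines include numbered arrays. Among unnumbered arrays alone, betaD10 was the highest for Cnn2 and Tpm2 only. The highest unnumbered signal was in gammaA7 for Acta2 (7934) and Cnn1 (1440), and in cRAF_cMYC for Tagln (3048). It was in gammaB8 for Myl9 (399) and in A2B1 for Fhl1 (1875). A2C12 had the lowest mean signal for Cnn1, Myl9 and Fhl1. All 3 of its Fhl1 arrays lay under the arrays of A2B1, at 19.4 and 31.4 on the numbered and 117 on the unnumbered array.

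Leaving out arrays changed which genes passed among lines. With the 4 numbered arrays of cRAF_cMYC and gammaA7 left out, Tagln passed the F-test (adjusted p = 0.00606), as did 3.85% of tested genes. With both lines left out, Tagln passed as well (adjusted p = 0.0158), as did 4.62%. Its 4 numbered arrays in these lines are those given above, which followed the number and not the line. Fhl1 passed without the unnumbered array of B3 (adjusted p = 0.0281), without the unnumbered array of gammaA7 (0.0359) or without replicate 2 of gammaA7 (0.0461). In these settings 4.82%, 3.88% and 4.1% of tested genes passed. Without any other single array of a line with repeats, Fhl1 did not pass, at 0.0787 to 0.202. The highest was without replicate 2 of A2C12. Without line A2C12 its adjusted p was 0.507, and 10 of 5825 tested genes (0.172%) passed.

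**Figure D3:**
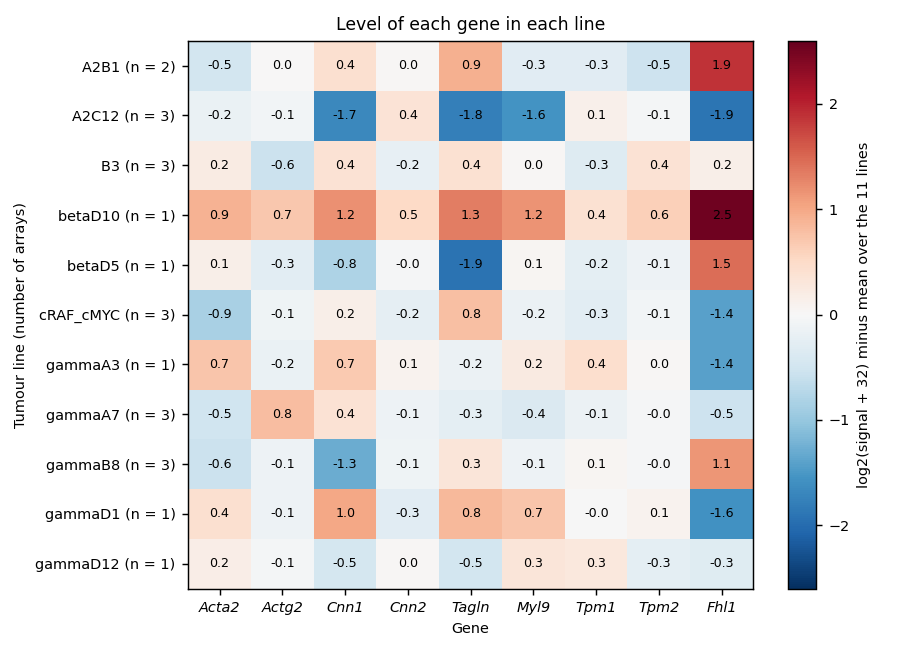
Level of each gene in each line, as log2(signal + 32) minus the mean over the 11 lines, with red above and blue below that mean and the number of arrays in brackets. Fhl1 and Tagln show the widest range of colours, and Cnn2 and Tpm1 the narrowest.

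Numbered and unnumbered arrays of the same lines were set against each other because the labels separate them and the levels above differ between them. Within the 6 lines that have both kinds, Cnn1 and Fhl1 were called lower on numbered arrays, 2 of the 9 genes, against 11 of 5825 tested genes or 0.189%. None was called higher by limma and none had an unadjusted p under 0.05 in that direction, against 0.0858% of tested genes called. Acta2, Cnn1, Fhl1, Tagln and Tpm1 were lower on numbered arrays in all 6 lines on the log2 scale, 5 of 9 genes against 4.41% of tested genes. The median difference of the 9 genes was -1.08, against 0.06 over all tested genes. The labels give no meaning for the numbers, and what they stand for was not tested.

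Cnn1 gave 216 on the numbered and 352 on the unnumbered array of A2B1, and means of 22.8 and 93.8 in A2C12, 198 and 468 in B3, 118 and 741 in cRAF_cMYC, 107 and 1440 in gammaA7 and 19.1 and 295 in gammaB8, with numbered arrays first in each pair. Every line was lower on its numbered arrays, and the gap was widest in gammaA7. The mean difference was -1.91 (SE 0.34, n = 6 lines, limma adjusted p = 0.043). Fhl1 gave 570 on the numbered and 1875 on the unnumbered array of A2B1, 25.4 and 117 in A2C12, 135 and 1219 in B3, 68.5 and 117 in cRAF_cMYC, 91.6 and 640 in gammaA7 and 532 and 820 in gammaB8. It too was lower on numbered arrays in each line, by -1.64 on average (SE 0.30, adjusted p = 0.0475), and its second probe set by -0.92 (SE 0.15, adjusted p = 0.0347), under 2-fold.

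Acta2 differed by -1.25 (SE 0.28, n = 6 lines, limma adjusted p = 0.0719) and did not pass. With arrays centred on their median it was -1.38 (adjusted p = 0.0495) and was called lower, as were 0.378% of tested genes. Its numbered and unnumbered signals were 1809 and 3322 in A2B1, 2717 and 3748 in A2C12, 3767 and 4451 in B3, 1331 and 3739 in cRAF_cMYC, 1284 and 7934 in gammaA7 and 1519 and 5486 in gammaB8. All 6 lines were lower on numbered arrays, with the smallest gap in B3 and the largest in gammaA7. Myl9 differed by -1.15 (adjusted p = 0.0878), Tagln by -1.08 (adjusted p = 0.183) and Tpm1 by -0.47 (adjusted p = 0.099), none of which passed. The difference was -0.42 for Actg2, -0.10 for Cnn2 and 0.23 for Tpm2.

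The calls on Cnn1 and Fhl1 lay close to the threshold. Neither gene was called when A2C12, B3, cRAF_cMYC, gammaA7 or gammaB8 was left out, with adjusted p-values of 0.0683 to 0.139 over both genes, while their mean differences kept their sign. Of all 5825 tested genes, 2 were called lower without A2C12, and 0 without B3, cRAF_cMYC, gammaA7 or gammaB8. The loss of calls was thus not particular to these genes. Without A2B1, Cnn1 (-2.16, adjusted p = 0.0253) and Myl9 (-1.44, adjusted p = 0.026) were called lower, as were 0.309% of tested genes. Fhl1 was not called without A2B1 either (-1.64, adjusted p = 0.0566). With cRAF_cMYC and gammaA7 both left out, the differences of Cnn1 and Fhl1 were -1.41 and -1.64 (adjusted p = 0.332 for each) over the 4 remaining lines. There 0 of 5825 tested genes were called lower.

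**Figure D4:**
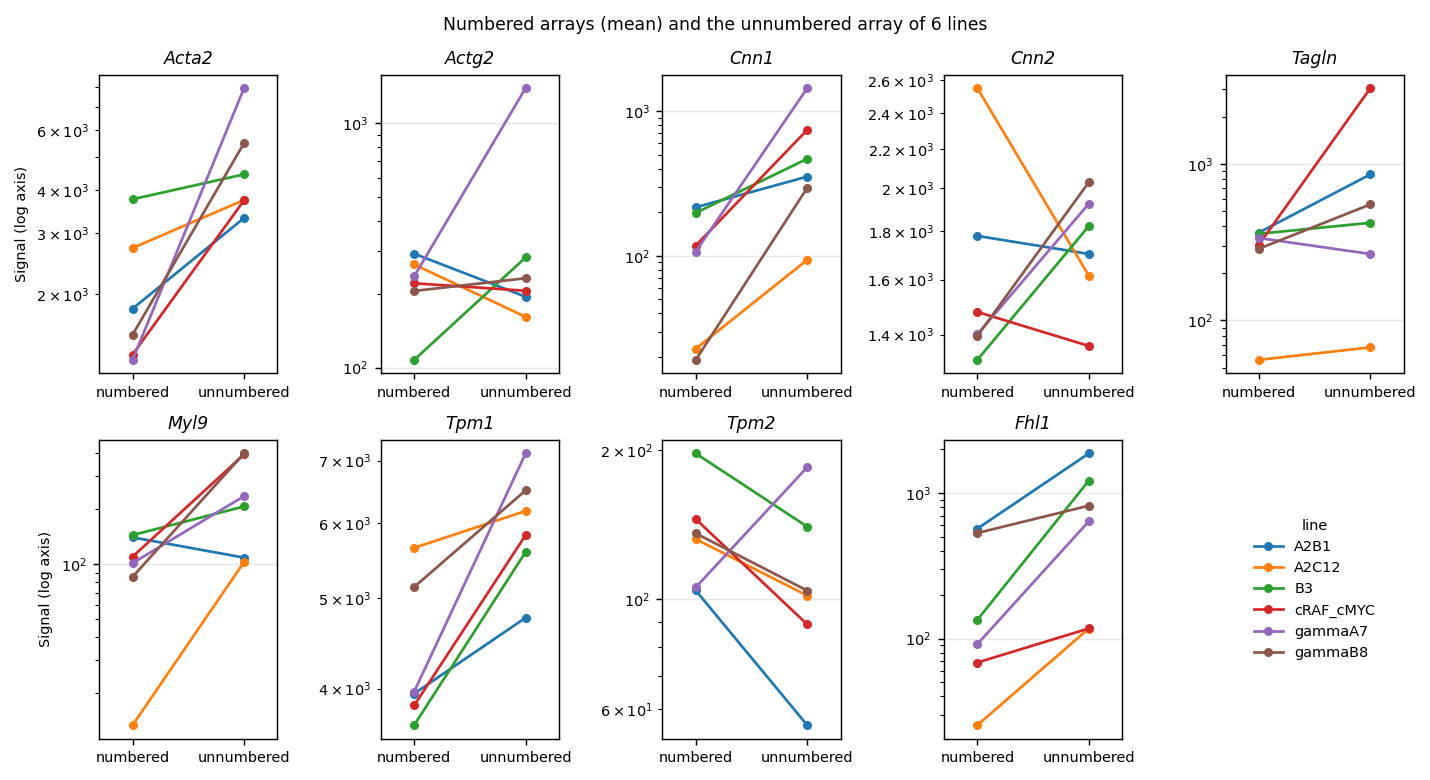
Mean signal of the numbered arrays and signal of the unnumbered array for each gene in the 6 lines that have both, on log axes, with 1 coloured line per tumour line. The lines of Cnn1, Fhl1, Acta2, Tagln and Tpm1 slope up from numbered to unnumbered arrays, apart from Tagln in gammaA7, where the mean of unlike numbered signals (336) exceeds the unnumbered one (266), and those of Cnn2 and Tpm2 cross.

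How the genes varied together over the 11 lines is given as a description, since lines share arrays of unlike label and the numbered arrays of cRAF_cMYC and gammaA7 resemble each other. The highest Pearson correlations of line means among the 9 genes were 0.73 for Cnn1 with Tagln, 0.71 for Cnn1 with Myl9 and 0.63 for Acta2 with Tpm1 (n = 11 lines). On the 11 unnumbered arrays, 1 per line, the same pairs gave 0.66, 0.50 and 0.73. Acta2 and Actg2, the pair of smooth muscle actins, gave 0.02 over line means and 0.80 on unnumbered arrays, where the single array of gammaA7 was the highest for both. Acta2 and Tagln gave 0.05 and 0.02.

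Outside the 9 genes, those whose line means followed Acta2 most closely were Mfsd14b (0.907), Cdk14 (0.898), Zmynd11 (0.894), Cyp1b1 (0.888) and Tmem183a (0.881), by Pearson correlation over 11 lines. On unnumbered arrays alone these fell in a range from -0.0425 for Zmynd11 to 0.635 for Cdk14. For Fhl1, the gene with the widest spread of line means, they were Cox17 (0.936), Chmp3 (0.935), Nrbp1 (0.919), Synj2bp (0.898) and Scgb1a1 (0.892). On unnumbered arrays these ran from 0.497 for Scgb1a1 to 0.897 for Chmp3. Scgb1a1, the secretory protein of club cells, gave 5.08 to 33.0 per line, against 5729 and 10350 on the controls, so its values in the lines lay near the offset and its correlation is drawn from signals near background. Each is among the highest of the correlations with all tested genes, taken over few lines.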

How the data were processed

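RNA of 24 samples was hybridised to Affymetrix mouse arrays. The authors deposited 1 intensity for each probe set and array, not log-transformed, made with GCOS, per the submitters' processing notes, with no version given. Every array had a mean of 250.1 to 250.2 after removal of 2% of probe sets at each end, so signals had been scaled array by array, and differences are relative to the other RNAs of a sample. The sources used here name no background correction or detection call. The median signal of an array was 53.2 to 75.5 for tumour lines, against 93.8 and 108 for control. The number of arrays limits the precision.

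The 66 control probe sets were left out. Symbols of probe sets with 1 annotated gene were updated to RefSeq through the Entrez ID. Signals were transformed as log2(signal + 32), which compresses low values. Of 12422 probe sets, the 7670 above their array's median on at least 2 arrays were tested, for 5825 named genes, each standing as its brightest tested probe set. In limma 3.58.1 (R 4.3.3), the 11 line means (arrays of a line averaged) were fitted against the 2 controls with 11 residual degrees of freedom. A fit of 12 groups to 24 arrays with 12 residual degrees of freedom gave the F-test among lines and each line against control. Numbered minus unnumbered differences were fitted over 6 lines. All adjusted p-values are Benjamini-Hochberg over 7670 probe sets. Nothing says that arrays are separate cultures or animals. The p-values of the F-test and of each line against control therefore measure a spread that may be technical. Those of the 11 line means against control rest mainly on the spread between lines, and take the 2 controls to vary as the lines do. Those of numbered against unnumbered arrays rest on the spread of the difference over 6 lines. The fits were tested on simulated data.

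The genes and lists were chosen with earlier results of these data known. Every probe set of the genes is accounted for. Of each other pathway list the 3 called genes with the largest difference are named, with fewer where fewer were called, and of marker lists counts and summed signals, with the 2 fibroblast markers brightest on the controls. The result of 1 pathway list is not reported here. Actg1, Tpm4, Cnn3, Cap1, Myl12b, Csrp2, Myh11, Des, Itga8 and Casq2 are named outside this rule. Correlates of Acta2 and of the gene with the widest spread of lines are the 5 closest. Alternatives covered scaling, offset, filter, variance model, probe set averaging, array label, and leaving out arrays, lines and controls.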

Additional observations from a re-analysis of the deposited data

Results flagged for a closer look

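Tagln differed between numbered and unnumbered arrays of cRAF_cMYC by -3.763 on the log2 scale, far from the other 5 of the 6 lines, which lay between -1.17 and -0.18. The numbered arrays of cRAF_cMYC averaged 305, against 3048 on its unnumbered array, the highest Tagln signal of the series. Tpm2 differed by -0.7171 in gammaA7, whereas the other 5 lines were higher on numbered arrays, by 0.28 to 0.63. Both are lines whose numbered arrays followed the number and not the line. The numbered arrays gave 55.8 and 554 for Tagln in cRAF_cMYC, and 146 and 65.8 for Tpm2 in gammaA7. The criterion used, Dixon's at 95%, was applied to each of the 9 genes. By it, chance gives such a gap in about 1 of 20 groups.

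Lines took opposite sides of the controls on the brightest probe sets of Myl9 and Fhl1. For Myl9, every array lay above both controls in 5 lines, betaD5, betaD10, gammaA3, gammaD1 and gammaD12, each with 1 unnumbered array. Every array lay below both in 1 line, A2C12, with signals of 14.3 and 12.3 on its numbered arrays and 102.6 on its unnumbered one. The controls gave 146.5 and 103.3, so the unnumbered array of A2C12 was nearly level with control 2. For Fhl1, the array lay above both controls in 1 line, betaD10, and every array lay below both in 8 lines. This holds for its brightest probe set; on its other tested probe set all 22 tumour arrays lay below both controls. The difference between these sets of lines was not tested, apart from the F-test over all lines, which neither gene passed.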

How the results depend on the processing

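The 4 higher calls against control remained in all but 3 alternatives: Cnn1 was not called with numbered arrays only or with line as a random block, and Cnn2 not at a 4-fold threshold. The count of lower calls became 1, Fhl1, with the mean of a gene's tested probe sets and with numbered arrays only, and was 0 to 1 when single lines, arrays or controls were left out. Tagln turned to 0.01024 with centred arrays and 0.3021 without control 1 (-1.352 to 0.3021 over single omissions), and Myl9 to -0.4936 with numbered arrays only. Among lines, 0 to 1 genes passed when single arrays were left out. The count was 1 with 6 lines of 2 or 3 arrays (778 of 5825 genes passed) and 5 with numbered arrays of 5 lines (1267 passed, with cRAF_cMYC and gammaA7 arrays alike). It was 1 without the 4 numbered arrays of cRAF_cMYC and gammaA7 (224 passed), 1 without both lines (269 passed) and 0 without line A2C12 (10 passed). Between numbered and unnumbered arrays, lower calls fell to 0 with quantile normalization, an offset of 1 or of 100, signals floored at 32, all probe sets tested, a mean trend, or without cRAF_cMYC and gammaA7, rose to 3, with Acta2, on centred arrays, and were 0 to 2 when single lines were left out. Of all tested genes, 0% (such as with an offset of 1) to 0.378% (on centred arrays) were called lower in these settings. The cause of these changes was not tested. Replicate numbers are shared by 5 lines, whose same-numbered arrays correlated at 0.0588 to 0.698 over 20 pairs, and whose unnumbered arrays correlated at 0.172 to 0.538. Some same-numbered pairs were close to 0, so the numbers were not taken to pair all arrays. With the replicate number as a block, 2 genes passed among lines, Cnn1 and Fhl1, as did 378 of 5825 genes. In 44 of 60 comparisons, each with 3 labels to choose from, an array correlated best with its own label. These comparisons include unnumbered arrays and the arrays of cRAF_cMYC and gammaA7, and the arrays of a line were centred together. The count therefore cannot decide whether replicate numbers pair arrays, and the design does not say so. The controls carry no such number, so no paired analysis was possible against control. Low signals near the offset, such as Cnn1 on the controls, are measured with little precision.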
